A study of Mus musculus with 8 samples.

Results

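The peaks described here are the m6A peaks that the deposited lists place in the last exon of a transcript, and that span 500 bp or less. N6-methyladenosine (m6A), an adenosine of RNA that carries an added methyl group, was mapped in RAW264.7, a mouse macrophage line, by MeRIP-seq, in which RNA fragments are pulled down with an m6A antibody and sequenced. A peak was taken as a member when its annotation text began with Exon, its width was at most 500 bp, and the exon number equalled the exon total of the named transcript, with a total of at least 2. The rule used position and width only, not the score. It found 671 members among the 4432 peaks of untreated (control) cells, 933 of 6285 in cells given TBP, 1017 of 6981 with TCP and 459 of 3034 with TIP, which makes 3080 of 20732 in all. The lists come from the 4 immunoprecipitated samples of a series of 8; the 4 RNA input samples were not analysed here. Compound-treated cells received TBP, TCP or TIP, named by these abbreviations, at 100 µM for 24 h, and control cells had no treatment.

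Each condition had 1 immunoprecipitated library of 1 cell line, so there is no replicate and no p-value between conditions, and every 95% interval (exact Clopper-Pearson unless named otherwise) covers counting error only. Read depth is unknown, and a list without a peak says only that none was called. The authors' score per peak has no stated scale, so it is used as a rank within a list (rank 1 is the best score) or as a percentile of the list, with tied peaks at their middle rank. Ties are heavy: in the TIP list 301 peaks, 59 of them members, share rank 17. That rank stands at percentile 94.5 of the TIP list, so a TIP rank of 17 cannot be set against ranks of the other lists. The macrophage label was checked on 12 marker genes, of which 9 had a peak in some list, among them Cd68, Csf1r, Lyz2 and Spi1, while 0 of 23 marker genes of other cell types did. The macrophage markers Adgre1, Itgam and Fcgr3 had no peak in any list. By list, 8, 8, 6 and 6 of the 12 had a peak in control, TBP, TCP and TIP. In addition, 3 of the 12 macrophage markers (Mpeg1, Cd14 and Csf1r) had a member peak. Coordinates are on GRCm38 (mm10), and values given 4 in a row are in the order control, TBP, TCP and TIP.

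m6A is written co-transcriptionally by a complex with METTL3 and METTL14 as its core and WTAP and VIRMA among its partners, and is read by proteins that affect splicing, export, translation and decay of the RNA. It is best known for its concentration around stop codons, in the last exon and in unusually long internal exons, and its relative scarcity near splice junctions. The last exon of most mammalian genes holds the end of the coding sequence and the whole 3′ UTR. In these lists the peaks of annotated UTRs carry a class of their own, so a member lies in a last exon outside an annotated 3′ UTR: in the coding end of the gene, or in the last exon of a non-coding or shorter transcript.

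Members made up nearly the same part of each list. They were 15.1% of the control list (14.1 to 16.2), 14.8% of TBP (13.97 to 15.7), 14.6% of TCP (13.7 to 15.4) and 15.1% of TIP (13.9 to 16.5). Among exon-annotated peaks of at most 500 bp, the last exon held 34.3% in control (32.2 to 36.4), 33.3% in TBP (31.5 to 35.1), 31.6% in TCP (30.0 to 33.3) and 32.6% in TIP (30.2 to 35.1). The intervals of all 4 lists overlap. Narrow internal-exon peaks numbered 5564 and narrow 3′ UTR peaks 10224 over the 4 lists. The median member was 50 bp wide in every list, and 34.8% to 37.3% of members spanned a single 25 bp step. Just inside the width limit lay a peak of 353 bp in Gabpa in control, 300 bp in Fem1c in TCP and 250 bp in Phip in TIP. In TBP it was a peak of 306 bp annotated to Rfx7 but on the strand opposite to that gene. Just outside lay last-exon peaks of 855 bp in Rbm15 in TBP, 963 bp in Srcap in TCP and 1724 bp in TIP, while control had 0.

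Most members sat in genes of several exons that code for protein. Protein-coding genes hosted 95.2% to 95.8% of members in the 4 lists. Transcripts with 2 exons, where the last exon often holds nearly all of the coding sequence, contributed 21.2% of control members (18.1 to 24.5), 19.1% in TBP (16.6 to 21.7), 19.1% in TCP (16.7 to 21.6) and 19.0% in TIP (15.5 to 22.8). Totals of 3 to 5 exons gave the largest share in each list, between 34.2% and 35.4%, and totals over 10 gave 21.8% to 24.0%. The strand of the host gene was known for 637, 890, 969 and 434 members in control, TBP, TCP and TIP. Of these, 4, 5, 7 and 5 lay on the strand opposite to the gene their annotation names. They carry the names Abhd15, Pkd1l3, Sfpq, Rfx7 and 4930470G03Rik. Gm17484, not among these names, had members on both strands in all 4 lists. A further feature of strand was that 2.57% to 3.05% of members overlapped a peak of the same list on the other strand, against 0.72% to 0.98% of internal-exon peaks and 5.13% to 6.33% of 3′ UTR peaks.

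As the rule implies, members lay near the ends of their genes. The median distance from a member to the 3′ end of the RefSeq gene was 2497 bp in control, 2377 bp in TBP, 2425 bp in TCP and 2510 bp in TIP. A 3′ UTR peak of the same list and strand followed within 1 kb downstream for 20.9% of control members (17.8 to 24.1), 24.2% in TBP (21.5 to 27.1), 22.6% in TCP (20.1 to 25.3) and 18.5% in TIP (15.1 to 22.4). Thus most members had no called 3′ UTR peak close by. By gene, 29.7% of control host genes (25.4 to 34.3), 35.0% in TBP (31.1 to 39.1), 35.0% in TCP (31.2 to 38.9) and 25.7% in TIP (20.8 to 31.0) also carried a 3′ UTR peak. For 51.3% to 62.7% of host genes with a known strand, no peak other than members was called on that strand within the gene.

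Members were spread over many genes, with a few genes holding several. The exon annotation names 431 host genes for control, 565 for TBP, 614 for TCP and 300 for TIP, and 907 genes had a member in at least 1 list. Of these, 180 (19.8%) had a member in all 4 lists, 128 in 3, 207 in 2 and 392 in 1. Of the 907, 882 were protein-coding and 24 were long non-coding RNAs. In addition, 59 peaks carry a transcript ID with no gene ID and are in no gene count. A single member was the rule, seen in 74.5% of control host genes, 71.9% in TBP, 71.2% in TCP and 75% with TIP, while 14, 26, 21 and 8 genes had 5 or more. Of the 4292 protein-coding genes with a peak anywhere in their span in any list, 20.5% had a member. Genes whose symbols mark a zinc-finger protein (Zfp, Znf, Zbtb, Zkscan or Zscan with a number) were 58 of the 907 hosts (6.39%), against 465 of 21900 protein-coding RefSeq genes (2.12%). This compares genes with a called peak with all annotated genes, expressed or not.

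Ahnak, the gene of a giant scaffold protein that is encoded mostly by its last exon, was the host with the most members. It had 29 in control, 31 in TBP, 32 in TCP and 34 with TIP, or 4.32%, 3.32%, 3.15% and 7.41% of each list's members. They fell in 63 separate regions over 16550 bp of exon 5 of 5 on chromosome 19 (9001739 to 9018288, plus strand). Of those regions, 9 had a peak in every list and 40 in only 1. Its number of members was thus highest in the shortest list. Its leading peak ranked 8 in control (9016939 to 9017063), 15 in TBP (9016964 to 9017038) and 1 in TCP (9002889 to 9003138), and 13 in TIP (9010364 to 9010538).

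Pattern recognition receptors of macrophages were prominent hosts, and the coding sequence of several of them lies mostly in 1 exon. Tlr2, the receptor for bacterial lipoproteins, had 8 members in control, 9 in TBP, 7 in TCP and 5 with TIP, in 10 regions over 2100 bp of exon 3 of 3 on chromosome 3 (83836422 to 83838521, minus strand). Its most upstream region, 83838222 to 83838521, ranked 22 in control, 17 in TBP, 11 in TCP and 9 with TIP. That region was among the best-scored of every list. A second Tlr2 region, 83836597 to 83836796, ranked 78, 58, 244 and 17 in the same order, so these 2 regions held the best-ranked Tlr2 members of control, TBP, TCP and TIP. The percentiles of this second region were 98.2, 99.1, 96.5 and 94.5.

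Tlr7, an endosomal receptor for single-stranded RNA, had 8 members in control, 12 in TBP, 9 in TCP and 5 with TIP, in 16 regions over 2900 bp of exon 5 of 5 on chromosome X (167305479 to 167308378, minus strand). Its best ranks were 510, 555, 163 and 17, at percentiles of 88.2, 91.0, 97.6 and 94.5, below the best Tlr2 peak in each list. The region 167305529 to 167305678, present in all 4 lists, ranked 510 in control, 583 in TBP, 517 in TCP and 17 with TIP. A region of 75 bp at 167306604 to 167306678 was called in TCP only, at rank 163, and directly adjoined a control peak with no base between. Tlr13, which senses bacterial ribosomal RNA, had 1, 2, 4 and 1 members, Tlr4, the lipopolysaccharide receptor, 1, 4, 2 and 0. Cd180, a Tlr4-related surface receptor, had 5, 7, 7 and 4, in 7 regions over 1525 bp, of which 4 were in every list. Its region on chromosome 13 at 102706086 to 102706360 (plus strand) ranked 65, 76, 58 and 17, at percentiles of 98.5, 98.8, 99.2 and 94.5.

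Several members also lay in Mpeg1 and Cd14, from the macrophage identity list, and in 2 receptors. Mpeg1, the pore-forming perforin-2 of phagocytes, had 5 members in control, 6 in TBP, 8 in TCP and 8 with TIP, in 11 regions over 2075 bp of exon 2 of 2. Only 3 of the 11 regions were in all lists. The region on chromosome 19 at 12461850 to 12462024 ranked 346 in control, 412 in TBP, 154 in TCP and 17 with TIP. Its percentiles were 92.1, 93.4, 97.8 and 94.5. Cd14, the co-receptor for lipopolysaccharide, had 5, 5, 5 and 2 members. Its best ranks were 67, 139, 72 and 17, at percentiles of 98.5, 97.8, 99.0 and 94.5. Gpr183, a receptor for oxysterols, had 5, 4, 3 and 3 members, and Gpr65, a proton-sensing receptor, 3, 2, 3 and 2.

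**Figure D1:**
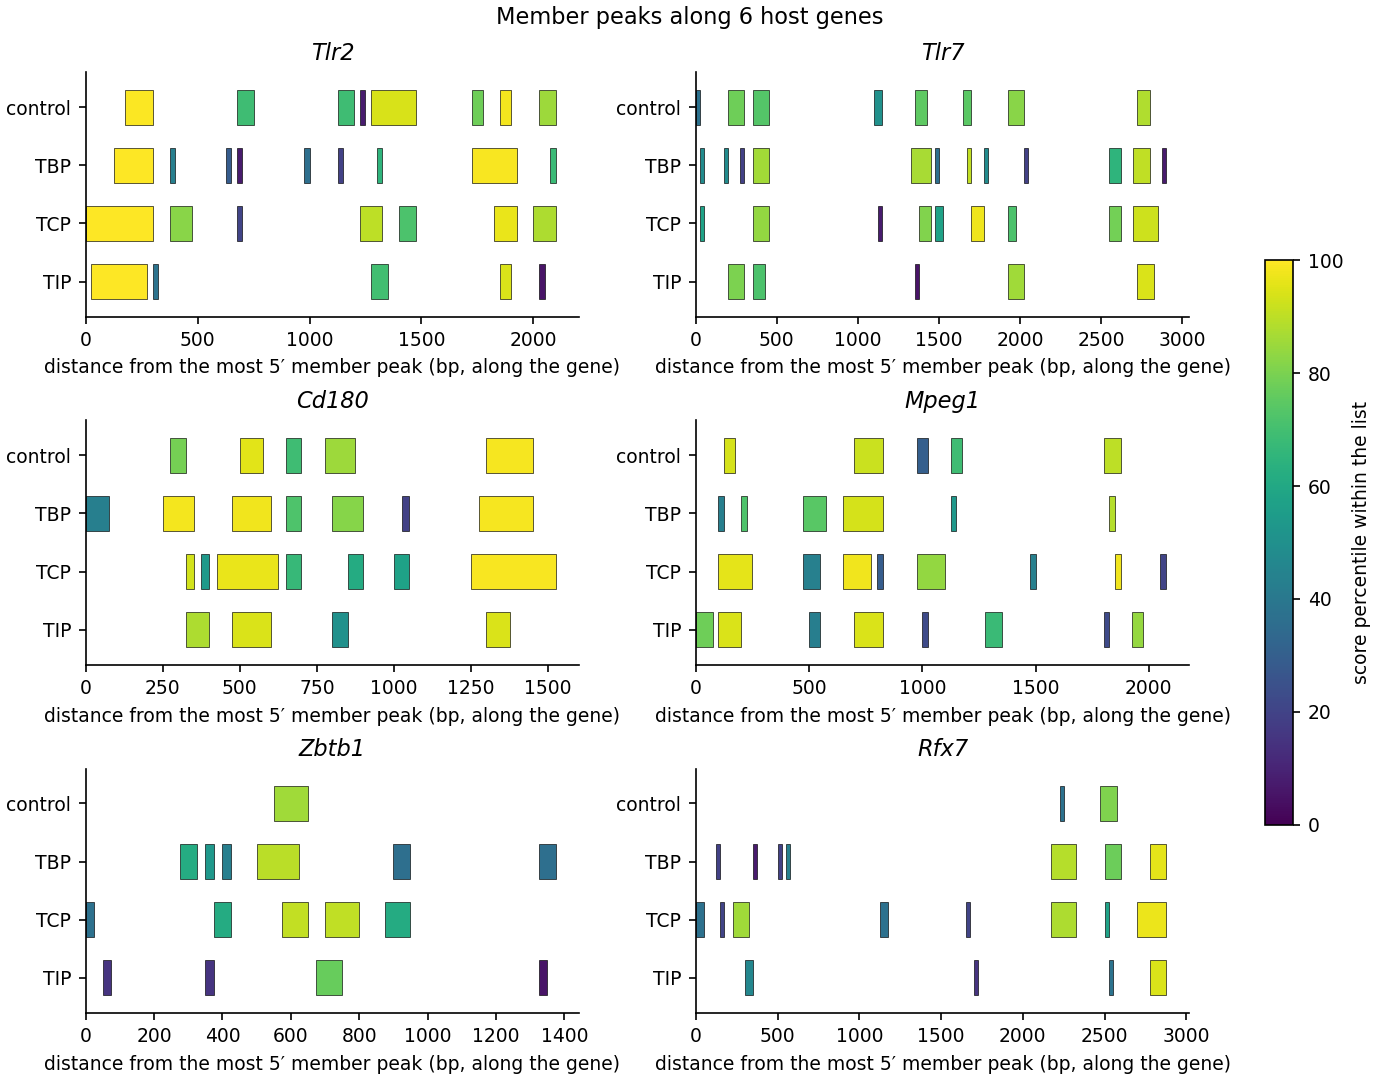
Member peaks on the sense strand along 6 host genes. Each bar is 1 peak, drawn at its distance in bp from the most upstream member of that gene in any list (x axis), in 1 row per peak list, and coloured by its score percentile within that list. In Tlr2 the upstream end held a high-percentile peak in all 4 lists, whereas in Zbtb1 control had 1 peak and TBP 6, TCP 5 and TIP 4.

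Stress-response genes gave some of the best-scored members. Hspa5, the endoplasmic reticulum chaperone BiP, had 3, 2, 4 and 3 members, all within 400 bp of exon 9 of 9 on chromosome 2 (34775694 to 34776093, plus strand). Its best ranks were 9 in control, 8 in TBP, 21 in TCP and 6 with TIP, and 2 of its 3 regions were in every list. Nfe2l2, the transcription factor NRF2 that drives antioxidant genes, had 2, 5, 4 and 3 members on exon 5 of 5. Its region at 75676688 to 75676987 on chromosome 2 (minus strand) ranked 91, 41, 87 and 2. The TCP rank is that of a 25 bp peak that overlapped no control peak. The TCP peaks of the region that did overlap one ranked 329 and 554. A second Nfe2l2 region, 75676188 to 75676287, was absent from control and ranked 555 in TBP, 534 in TCP and 1565 with TIP. Its percentiles there were 91.0, 92.2 and 46.4. Pdia4, which rearranges disulfide bonds of secretory proteins, had 2, 2, 1 and 2 members, and Atf4, a transcription factor of the integrated stress response, 0, 1, 1 and 1.

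Spred1, an inhibitor of Ras signalling, differed from these in having 1 dominant region. The peak on chromosome 2 at 117177321 to 117177570 (plus strand, exon 7 of 7) ranked 12 in control, 12 in TBP, 10 in TCP and 17 with TIP. Its percentiles were 99.7, 99.8, 99.9 and 94.5. A further Spred1 member was found in TBP only, at rank 1247.

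Further hosts with the most members over the lists were Plec, Arid1a, Rfx7 and Zfp292. Plec, which encodes the cytolinker plectin, had 7, 9, 9 and 2 members in control, TBP, TCP and TIP, and 1 of its 15 regions was in all 4. Arid1a, a subunit of the BAF chromatin remodelling complex, had 6, 7, 8 and 5, with best ranks of 669, 543, 554 and 399. The percentiles of its best members were 84.5, 91.3, 92.0 and 85.7. Zfp292, a zinc-finger protein, had 5, 6, 11 and 4, and a single region of its 14, at 34811538 to 34811787 on chromosome 4 (minus strand), was in all lists at ranks 766, 841, 554 and 946. That region stood at percentiles of 82.1, 86.3, 92.0 and 67.7. Rfx7, a winged-helix transcription factor, had 2, 8, 11 and 5 by annotation, of which 1 in TBP, 3 in TCP and 1 with TIP lay on the strand opposite to the gene. Zbtb1, a transcription factor of lymphoid cells, had 1, 6, 5 and 4 members in exon 2 of 2. None of its 9 regions was in all 4 lists. The best Zbtb1 peak stood at percentiles of 85.9, 89.8, 90.9 and 76.6, in the region 76386436 to 76386585 of chromosome 12 (plus strand) in control, TBP and TCP and in another region, at 76386611 to 76386685, in TIP. Among long non-coding RNAs, Tug1 had the most members, 4, 5, 4 and 2.

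The gene lists of related pathways show which families the last exon holds. They were chosen with earlier results of these data known, so their counts are descriptions. Of 37 Toll-like receptor and NF-kB genes, 17 had a peak anywhere in any list, and 10 of those 17 had a member, 5 of them in all 4 lists. Besides the receptors named above these include Traf6, an adaptor ligase, with 1, 2, 1 and 1 members, and Traf3, a related adaptor, with 1, 2, 2 and 1. Of the BTB zinc-finger genes 16 of 33 had a peak and 9 of the 16 had a member, and of the unfolded protein and integrated stress response genes 14 of 20 had a peak and 7 of the 14 had a member. Over all protein-coding genes with a peak, 20.5% had a member. Zbtb6 had 3, 2, 3 and 0 members, Zbtb11 2, 3, 1 and 1, Zbtb18 1, 1, 2 and 1, and Ppp1r15b, a regulatory subunit of an eIF2 phosphatase, 1, 0, 0 and 1.

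The other lists are given with the same counts. Of 18 histone methyltransferase genes with a peak, 4 had a member, namely Kmt2e with 1, 1, 2 and 2, Setd5 with 1 in each list, Kmt5b with 1, 2, 1 and 0, and Setd1b with 1, 1, 1 and 0. Of the 17 translation initiation genes with a peak 1 had a member: Eif3a, a subunit of initiation factor 3, with 1 in TIP at rank 17, overlapped in the other 3 lists by peaks that are not members. Of 12 immediate early and AP-1 genes with a peak, 1 had a member, Zfp36, an mRNA decay factor, in TCP at rank 5932. Of the cytokine and chemokine genes 5 of 20 had a peak and 0 had a member, and likewise 4 of 14 histone genes had a peak and 0 a member. Within the m6A writer complex 8 of 12 genes had a peak and 3 a member. Wtap, the regulatory subunit, had 1, 1, 2 and 1, Virma 0, 1, 1 and 0, and Cbll1 a single one in TCP. Of the readers and erasers, 10 of 16 genes had a peak and Eif3a, which is on this list too, was the 1 with a member. Of 17 macrophage identity genes with a peak 4 had a member, among them Csf1r, the receptor for the macrophage growth factor CSF1, and Ctss, a lysosomal protease, with 1 each in TBP.

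Of 12 interferon and JAK-STAT genes with a peak 5 had a member. Socs4 had 1, 3, 3 and 1, Socs5 0, 2, 1 and 0, Socs6 0, 1, 1 and 0, all from the family of suppressors of cytokine signalling, and Ifngr2, a subunit of the interferon gamma receptor, 1 in TBP. Of 9 forkhead genes with a peak 2 had a member, Foxm1 and Foxn3, each with 1 in TBP and 1 in TCP. Of 11 antioxidant genes with a peak 2 had a member, Nfe2l2 and Gclc, the catalytic subunit of glutathione synthesis, which had 1 in TCP at rank 1541. Of 11 heat shock genes with a peak 4 had a member: Dnaja2 (1, 1, 0 and 1), Bag3 (1, 0, 1 and 0), Hspa4 (0, 1, 1 and 0) and Hspa4l (1 in TCP). Of 9 G-protein coupled and lipid receptors with a peak 4 had a member, Gpr183 and Gpr65 with the values above, S1pr1, a sphingosine-1-phosphate receptor, with 1, 1, 1 and 0, and Gpr84 with 1, 1, 0 and 0.

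Within each list, members had a higher median score percentile than internal-exon peaks, by an amount that a test over 4 lists cannot call significant. Their median percentile was 52.7 in control (50.3 to 55.02, order-statistic interval), 53.3 in TBP (47.9 to 53.3), 53.5 in TCP (48.9 to 57.6) and 50.3 in TIP (46.4 to 56.3). Internal-exon peaks had medians of 44.8, 47.9, 48.9 and 46.4, and 3′ UTR peaks 50.3, 53.3, 48.9 and 50.3. The difference from internal exons was 3.82 to 7.94 percentile points and had the same sign in 4 of 4 lists (exact sign-flip permutation test over the lists, two-sided p = 0.13, the smallest p that 4 lists can give, which is above the usual threshold; adjusted p = 0.167 over 12 such comparisons). Against 3′ UTR peaks it was 0 to 4.65 points, with p = 0.5 in the same exact permutation test. The order against internal exons is lost when every list is cut to its 3034 best-scored peaks, where the mean difference over the lists was 0.305 points (-3.64 to 3.82 over the lists). The best-scored 10% of each list took in 11.5%, 11.5%, 11.8% and 13.9% of members in control, TBP, TCP and TIP, against 8.17%, 9.73%, 9.63% and 10.1% of internal-exon peaks.

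**Figure D2:**
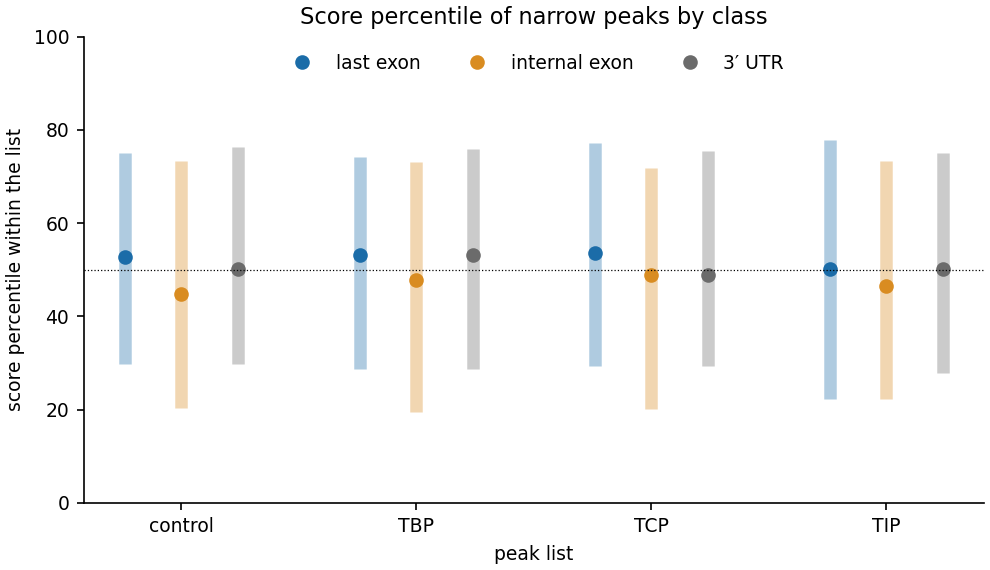
Score percentile within each list (y axis) of narrow peaks annotated to the last exon, to an internal exon or to a 3′ UTR, for the 4 peak lists (x axis). Points are medians, thick bars run from the lower to the upper quartile and the dotted line marks the middle of the list; the last-exon median lies above the internal-exon median in each list, while the quartile ranges overlap.

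The share of members found in all 4 lists was above that of internal-exon peaks in each list. Recurrence was counted by same-strand overlap of at least 1 bp with any peak of another list. A peak was present in all 4 lists for 25.5% of control members (22.2 to 29.0), 19.2% in TBP (16.7 to 21.9), 18.1% in TCP (15.8 to 20.6) and 35.5% in TIP (31.1 to 40.1). For internal-exon peaks the shares were 21.3%, 15.0%, 12.05% and 26.8%, and for 3′ UTR peaks 23.7%, 17.8%, 16.3% and 33.9%. Conversely, 18.6% of control members, 32.0% in TBP, 36.8% in TCP and 19.2% with TIP overlapped no peak of any other list, against 26.4%, 39.9%, 47.7% and 32.8% of internal-exon peaks.

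The excess over internal exons in presence in all 4 lists was 4.17 to 8.69 percentage points, and the difference in presence in no other list was -13.6 to -7.73 points. Both had the same direction in 4 of 4 lists (exact sign-flip permutation test, two-sided p = 0.13; adjusted p = 0.167 over the 12 comparisons). Against 3′ UTR peaks the excess was 1.38 to 1.83 points and also held in 4 of 4 lists (exact permutation p = 0.13, adjusted p = 0.167). An overlap between lists is counted from both sides, so the 4 lists are not independent in this measure. Shares are higher in the shorter lists, control and TIP, so they are comparable between classes of a list and not between lists.

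**Figure D3:**
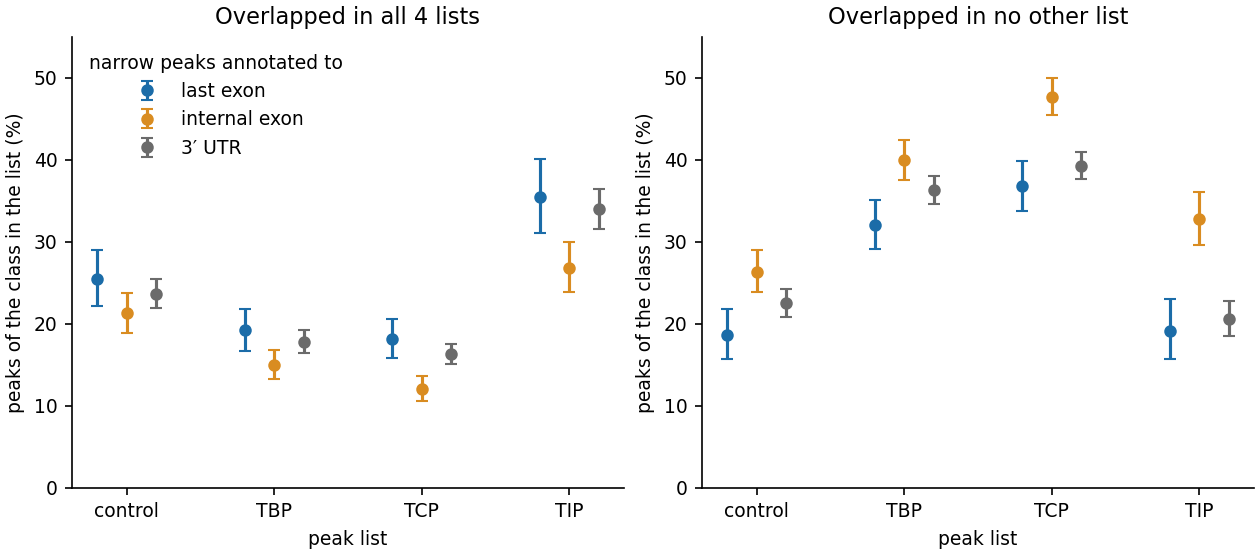
Share of narrow peaks of each class (y axis, %) that overlap a peak in all 4 lists (left panel) or in no other list (right panel), for each of the 4 lists (x axis), with exact 95% binomial intervals. Last-exon peaks lie above internal-exon peaks at left and below them at right in every list, and their intervals overlap those of 3′ UTR peaks.

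Recurrence rose with score. Each list was divided into 4 equal ranges of score percentile. In the best-scored range 61.8% of control members (54.2 to 69.1), 61.2% in TBP (54.4 to 67.6), 54.0% in TCP (47.9 to 60.0) and 60.3% in TIP (51.2 to 68.9) were present in all 4 lists. In the range with the lowest scores at most 1.86% were in control, TBP and TCP, and 13.7% (8.02 to 21.3) were in TIP. Within the best range the internal-exon shares were 58.2% in control, 52.8% in TBP, 42.1% in TCP and 59.2% with TIP, below those of the members in each list. For 3′ UTR peaks they were 53.9%, 53.3%, 48.5% and 63.0%, which is above the members in TIP.

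**Figure D4:**
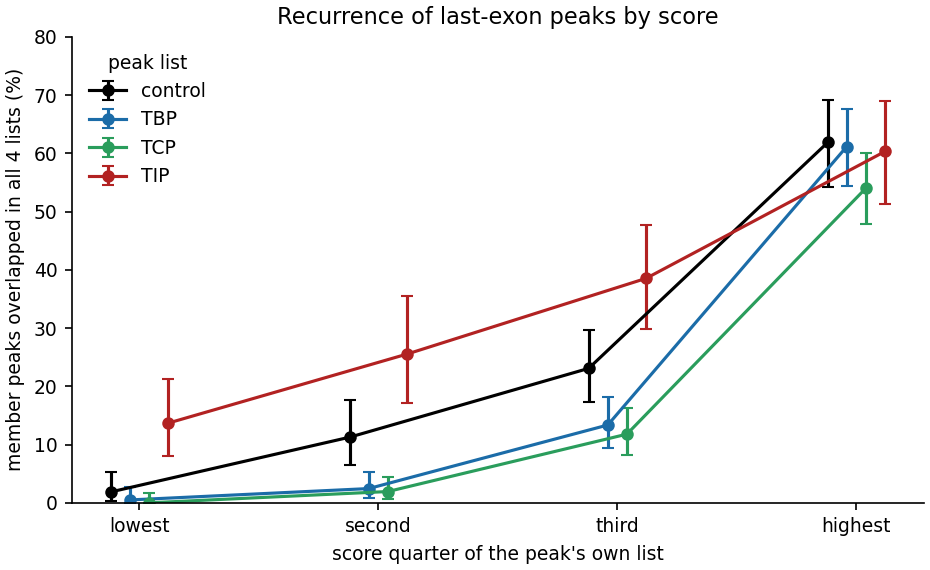
Share of last-exon member peaks overlapped in all 4 lists (y axis, %) against the score range of the peak's own list, 4 ranges by percentile (x axis, from lowest to highest), one line per list, with exact 95% binomial intervals. Every line rises to between 54.0% and 61.8% in the highest range, and in the lowest range TIP stands at 13.7% while the other lists are at or below 1.86%.

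Merging the overlapping members of all lists by strand gave 1712 regions. A peak of only 1 list was found at 886 regions (51.8%), of 2 lists at 369 (21.6%), of 3 at 238 (13.9%) and of all 4 at 219 (12.8%, 11.2 to 14.5). The share in all 4 lists was 3.33% when a peak of each list had to overlap the merged region by 50% of both peak and region. A merged region is at least as wide as the members in it, so this is stricter than 50% between peaks. Regions made in the same way were in all 4 lists for 8.97% of 3356 from internal-exon peaks and for 11.7% of 5703 from 3′ UTR peaks, and in 1 list for 64.3% and 57.4%. Regions of 1 list followed the order of list length, with TCP alone at 374, TBP alone at 299, control alone at 125 and TIP alone at 88. TBP and TCP together without the other lists accounted for 179 (10.5% of the 1712), and all 3 compounds without control for 31 (1.81%). Such counts by list were not made for regions of other classes, so none of them is read as particular to members. The mean percentile of a region, over the lists with a member there, had a median of 29.0 for regions in 1 list and 74.8 for regions in 4. Across regions with a member in both lists of a pair, percentiles had a Spearman rank correlation of 0.56 to 0.64 over the 6 pairs (255 to 478 regions). These regions are chosen by being called in both, and neighbouring regions share a transcript. The 8 regions with a member in each list and the best mean percentile were in Ahnak (3 regions), Tlr2, Hspa5, Nfe2l2, Spred1 and Cd180.

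Compared with control, members differed between lists about as often as peaks in general, or slightly less. Of the 933 members of the TBP list, 540 (57.9%, 54.6 to 61.1) overlapped no control peak, where the same was true of 60% of all TBP peaks. Of the 1017 members with TCP, 609 (59.9%, 56.8 to 62.9) overlapped none, against 64.6% of all TCP peaks, and of the 459 with TIP, 188 (41.0%, 36.4 to 45.6), against 48.2%. In the reverse direction 262 of 671 control members (39.0%, 35.3 to 42.9) had no overlap in TBP, against 42.7% of all control peaks, 253 (37.7%, 34.0 to 41.5) had none in TCP, against 44.3%, and 410 (61.1%, 57.3 to 64.8) none in TIP, against 64.7%. All 6 member shares were below those of all peaks, and in 3 comparisons (both with TCP, and TIP members against control) the interval did not reach the share of all peaks. With an overlap of at least 50% of both peaks required, the share of control members without overlap was 59.3% in TBP and 60.8% in TCP. This share was not computed over all control peaks. Members are a part of all peaks, and the 3 compounds share the control list.

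**Figure D5:**
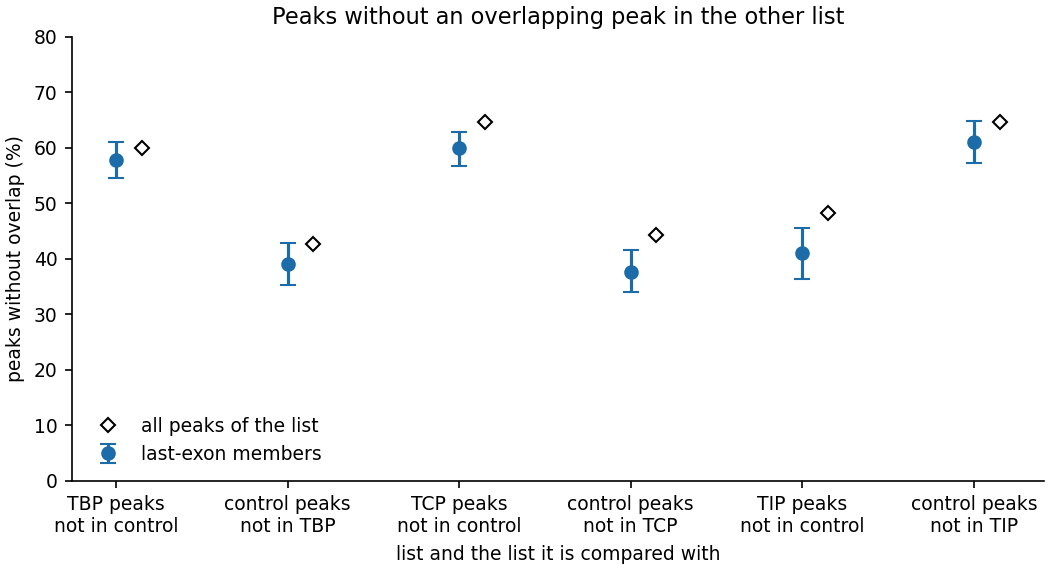
Share of peaks (y axis, %) without a same-strand overlapping peak in the compared list, for each direction of the 3 comparisons with control (x axis). Filled points are last-exon members with exact 95% binomial intervals, open diamonds are all peaks of the list, and each member point lies below its diamond.

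Members without overlap were the lower-scored ones. Their median percentile was 36.2 in TBP against 72.2 for TBP members that overlapped a control peak, 36.8 against 75.5 in TCP, and 38.0 against 65.1 in TIP. Control members without overlap had a median of 37.4 in each comparison, against 63.0, 63.0 and 75.1 for those kept in TBP, TCP and TIP. Some had a neighbour in the other list. A control peak directly adjoined 58 of the 540 TBP members without overlap (10.7%), 66 of the 609 with TCP (10.8%) and 45 of the 188 with TIP (23.9%). It lay within 100 bp of 21.7% of the TBP members without overlap (18.3 to 25.4), 22.8% with TCP (19.5 to 26.4) and 43.1% with TIP (35.9 to 50.5). For internal-exon peaks without overlap these shares were 20.7%, 19.7% and 24.6%, and for 3′ UTR peaks 19.6%, 20.3% and 34.5%, so in TBP and TCP the members were close to both. Where the strand of the host gene is known, the gene itself carried some control peak for 64.8% of the members without overlap in TBP, 61.6% in TCP and 81.7% with TIP. This share was not computed for other classes, so it is not read as particular to members. Conversely, a peak of the compound lay within 100 bp for 36.6% of the control members without overlap in TBP (30.8 to 42.8), 41.9% in TCP (35.7 to 48.2) and 24.4% in TIP (20.3 to 28.8). For control internal-exon peaks without overlap these shares were 32.6%, 37.6% and 19.6%, and for control 3′ UTR peaks 32.3%, 35.9% and 17.7%.

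Dose and time were matched among TBP, TCP and TIP, and with 1 library each a difference between them has no test. Of the 671 control members, TBP kept 61.0%, TCP 62.3% and TIP 38.9%, with 171 (25.5%) kept in all 3 lists and 125 (18.6%) in none. For control internal-exon peaks these last shares were 21.3% and 26.4%, and for control 3′ UTR peaks 23.7% and 22.5%. Of all 4432 control peaks, TBP kept 57.3%, TCP 55.7% and TIP 35.3%, so the order of TIP below the others is that of the whole lists. The TIP list holds the fewest peaks of the 4. When each list was cut to its 3034 best-scored peaks, the control members without overlap came to 42.1% in TBP, 40.2% in TCP and 47.8% with TIP. The shares of all control peaks at this cut were not computed, so these values are not read as particular to members.

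The 4 best-ranked members of each compound's list that overlapped no control peak lay at very different distances from one. In TBP they were 2 in Ahnak, at ranks 165 and 269, 1 in Zbtb11, a BTB zinc-finger protein, at rank 175, and 1 in Pdzd8, a lipid transfer protein of organelle contacts, at rank 254. The Zbtb11 peak on chromosome 16 (56007035 to 56007109, plus strand) was 26 bp from a control peak, and the Pdzd8 peak on chromosome 19 (59300703 to 59300777, minus strand) adjoined one. With TCP the leading one was in Rsrp1, an arginine- and serine-rich nuclear protein, on chromosome 4 at 134926948 to 134927047 (plus strand, exon 5 of 5), at rank 46 and adjoining a control peak of the 3′ UTR class. Next came a peak of 25 bp in Nfe2l2 at rank 87, in the gap between 2 control members. A peak in Hspa5 at rank 107 was 76 bp from a control peak.

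The remaining one of the 4 with TCP, in Arhgdia, was far from any control peak. The Arhgdia members, on exon 6 of 6 on chromosome 11 (120579279 to 120579303 and 120579329 to 120579353, minus strand), ranked 99 and 1225, and the nearest control peak to the first lay 18832 bp away. The gene had 4 peaks in TCP, 1 in TBP, 1 in TIP and 0 in control. Others at lower ranks were as far or farther. The TCP member in Gpsm2, a regulator of spindle orientation, at rank 108 was 223793 bp from the nearest control peak, and the one in Vcpip1, a deubiquitinase, at rank 293 was 21313 bp away. In TBP the member in Colgalt1, a collagen galactosyltransferase, at rank 309 was 148234 bp away. Gpsm2 also had a member in TBP, at rank 951.

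With TIP the best-ranked members without a control overlap shared rank 17, and the 4 named by chromosome order do not exhaust the tie. These 4 were in Suz12, a subunit of the Polycomb complex PRC2, in Slc5a3, a myo-inositol transporter, and in Ahnak (2 peaks). The Suz12 and Slc5a3 peaks and 1 of the Ahnak peaks adjoined a control peak. The Suz12 peak was overlapped by peaks of 2 other lists that are not members. At the same rank were a peak in Rpl4, a large-subunit ribosomal protein, 26 bp from a control peak, and one in Rabgef1, an endosomal ubiquitin ligase, whose nearest control peak was 28306 bp away. Rabgef1 also had a member in TBP, at rank 658, and none in control or TCP.

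Among control members absent from a compound's list, the one in Actb, the cytoplasmic beta-actin gene, was missing from all 3. This peak of 25 bp on chromosome 5 (142903840 to 142903864, minus strand, exon 6 of 6) ranked 216 in control, and the gene had 2 peaks in control and 0 in TBP, TCP and TIP. The nearest same-strand peak was 131942 bp away in TBP, 17930 bp in TCP and 131967 bp in TIP. Rpl4 had 1 member in control (rank 239), 1 in TBP (rank 112), 0 in TCP and 1 with TIP (rank 17), and in TCP it had no peak at all. The nearest TCP peak to the Rpl4 control member was 40493 bp away. These are single peaks of single libraries.

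The other control members among the 4 best-ranked absent from a list lay closer to a peak of that list. Usp1, a deubiquitinase of DNA repair, had 2 members in each of the 4 lists, and its control peak at rank 85 was 26 bp from a TBP peak and adjoined a TIP peak. Champ1, a zinc-finger protein of kinetochore attachment, had 2, 2, 3 and 3 members. Its control peak on chromosome 8 at 13879700 to 13879774 (plus strand), also at rank 85, overlapped no TBP peak, though a TBP member lay downstream in the same exon, and adjoined a TIP peak. A peak in Scaf4, a regulator of transcript termination, at rank 197 was 126 bp from a TBP peak.

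In TCP the control peaks absent were led by Slc5a3 (rank 61, 276 bp from a TCP peak), with Pdia4 at rank 221 (51 bp). In TIP they were led by Ahnak (rank 56, 151 bp from a TIP peak) and Edem3, which acts in endoplasmic reticulum degradation (rank 82, adjoining one). The Slc5a3 region at 92078115 to 92078289 on chromosome 16 (plus strand) ranked 61 in control, 49 in TBP and 318 in TIP and was not called in TCP, where the gene had 6 other members. Of lower-ranked control members, the one in Smap2, a regulator of vesicle traffic, at rank 289 lay 47822 bp from the nearest TBP peak.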

How the data were processed

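MeRIP-seq peak lists of 4 immunoprecipitated libraries, 1 per condition, were used. Per the submitters' processing notes, the tools include Trim Galore 0.6.5, HISAT2 2.1.0, Picard 2.23.5, SAMtools 1.9, ChIPseeker 1.26 and HOMER 4.11, with the builds GRCm38 and mm10. Per the file headers, each list gives position, strand, width, annotation, nearest gene and a score. Neither the program that called the peaks nor its threshold is stated per the labels, and whether inputs entered the calling is not known. The authors' score was deposited without a stated scale and was used only for ranks within a list. Positions and widths were used as the authors deposited them. Read depth is not known from the lists.

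Members were selected by the annotation text. Gene IDs were matched to symbols and spans of RefSeq on GRCm38.p6. Strand came from the RefSeq promoter table or else the lists' nearest-gene columns, and genes with neither (3649 of 21900 protein-coding genes) were read on both strands. The nearest-gene column differed from the host gene for 27.9% to 29.3% of members. Overlaps needed 1 bp on the same strand. The overlap step was tested on simulated data, where 600 of 600 planted overlaps were found and 0 false ones. Python 3.11.15 with pandas 2.3.3, NumPy 2.4.6 and SciPy 1.17.1 was used. Shares have exact Clopper-Pearson 95% intervals. Differences between classes within lists had an exact sign-flip permutation test over the 4 lists, with Benjamini-Hochberg adjustment over 12 comparisons.

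The members, gene lists and tests were chosen with earlier results of these data known. Named are the 4 best-ranked members per list, the 8 regions in all 4 lists with the best mean percentile, the 4 best-ranked members absent from control or from a compound's list, the 8 genes with the most members, and up to 4 genes per gene list with the most members, passing over unnamed genes. Further genes (Gabpa, Fem1c, Phip, Rbm15, Srcap, Traf3, Traf6, Abhd15, Pkd1l3, Sfpq, 4930470G03Rik, Gm17484, Tug1, Gpsm2, Vcpip1, Colgalt1, Rabgef1 and Smap2) were named after their values were seen. Alternatives were another width, overlap, exon total, score minimum, host gene source and list length. Sequence motifs and the distance to stop codons, which had been planned, were not analysed here.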

Additional observations from a re-analysis of the deposited data

How the results depend on the processing

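Over 26 results, 133 alternatives were set, 38 of them chosen after seeing the data (members of Ahnak left out, peaks with an opposite-strand overlap left out, and equal list length for the class differences). Of the 133, 93 kept the result, 39 moved it and 1 reversed it. The cause of these changes was not tested. Shares without overlap were not computed over all peaks under the alternatives, so those below are not read as particular to members. Some of the 93 test nothing. The TIP list was to be left out of the count of regions in all 4 lists but stayed in, so the value of 12.8% is the main one. Cutting to the shortest list leaves the TIP list whole, so its member count (459), share (32.6%) and median percentile (50.3) are the main ones. Merging touching members of a list found nothing to merge, so the 4 shares stayed as they were. No paired analysis was possible because each condition had 1 library. With the peaks below the median score left out, members numbered 368 in control, 531 in TBP, 581 in TCP and 248 with TIP, in 541 host genes. Their shares of narrow exon peaks became 37.3% in control, 35.2% in TBP and 33.8% in TCP. Control members without overlap became 33.7% in TBP, 31.2% in TCP and 55.7% in TIP, TIP members without overlap in control 32.7%, and regions in all 4 lists 14.7%. With an exon total of at least 3, the shares of narrow exon peaks were 27.0% (control), 26.9% (TBP), 25.6% (TCP) and 26.4% (TIP).

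With each list cut to 3034 peaks, TBP had 474 members (35.6% of narrow exon peaks) and TCP 471 (33.8%). The median percentile was 48.2 in control and 46.5 in TBP. Members without overlap in control were 45.1% in TBP and 42.3% in TCP, control members without overlap in TIP 47.8%, and regions in all 4 lists 19.1%. The mean difference in median percentile fell to 0.305 against internal exons and turned to -1.46 against 3′ UTR peaks, and the excess in presence in all 4 lists over 3′ UTR peaks was 1.84 points. With a reciprocal overlap of 50%, members without overlap in control came to 71.1% in TBP, 74.0% in TCP and 60.6% in TIP. Control members without overlap came to 59.3%, 60.8% and 73.9%. Regions in all 4 lists came to 3.33%, where the 50% applied to a peak and the merged region. Counting overlaps with members only gave 42.3% of control members without overlap in TCP, 45.8% of TIP members without overlap in control and 10.98% of regions in all 4 lists. Depth is unknown, so its limit on low-scored peaks could not be set.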
